A study of Nannochloropsis oceanica with 12 samples.

Results

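Among the transcripts of *Nannochloropsis oceanica* strain IMET1, a unicellular marine alga, 109 genes of 9756 formed a set whose levels lay lower at 24 h than at 12 h in both the wild type (WT) and M2, an RNA interference line with lowered expression of the carbonic anhydrase CA2. The set was chosen on the values themselves. A level is the log2 of a group's mean FPKM plus 1, where FPKM is the number of sequenced fragments scaled for transcript length and for the mapped fragments of the library. A gene was a member if its level was at least 0.7 lower at 24 h in each line and its mean was at least 5 FPKM in any group. The lines also had to be close: the level in M2 minus that in WT had to be above -0.3 at 12 h and between -0.5 and 0.45 at 24 h. What these conditions used is given as a description. Counts past a test's threshold on the same values describe the set and support nothing.

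Mid-logarithmic cultures kept in continuous light and 5% CO2 were washed, put back at equal cell numbers into fresh medium, again with 5% CO2, and sampled 12 h and 24 h later. The 4 groups were WT at 12 h, WT at 24 h, M2 at 12 h and M2 at 24 h, all of strain IMET1, with 3 labelled replicates each. M2 is a single knockdown line, and no control construct is named for WT, so what lowered CA2 does and what else sets this line apart from WT cannot be told apart. The labels tie CA2 to no ID, and the knockdown was not checked. The labels call the replicates biological and say no more of their origin, and p-values measure the spread between these libraries. In the M2 12 h table the last column equals 0.723 times replicate 1 within 0.1% for all 109 members, so it was not counted as a further library. It was left out of the means and fits, except in an alternative setting given below, which left 2 libraries in that group.

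Carbonic anhydrases interconvert CO2 and bicarbonate, and in algae they belong to the machinery that concentrates carbon around the carboxylating enzyme when CO2 is scarce. *Nannochloropsis* is known for storing triacylglycerol and eicosapentaenoic acid, and is grown in batch cultures in which light and nutrients per cell decline as density increases. None of the 109 members (0) carries a gene name. Their IDs give a scaffold and a gene number, the deposited tables pair these with no product, and 0 of the deposited IDs matched the 160 organelle genes of the reference table used here. The members could therefore not be ordered by role, and 3 of them are named by ID.

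Before the results, 1 library has to be set apart. WT 12 h replicate 3 correlated with the other WT 12 h libraries at Pearson r = 0.698 and 0.697 over the log2 values of 9579 genes, against 0.991 to 0.996 between other replicates, and the choice of members did not use it. Values without it come first, and the counts past a threshold and the changes of named members in WT and between lines at 12 h are also given with it. FPKM sums were 606886 to 617319 in the 10 libraries used and 780704 in that library. Read totals are not given. From the steps between low values, 1 read was worth 4.07 times as much FPKM in M2 12 h replicate 1 as in replicate 2. That ratio scored 19.1 against 17.3 for the next, so the relative depth of these libraries is not clear. The margin was smaller still between M2 24 h replicates 2 and 3 (ratio 0.925, 22.0 against 20.8). It was larger between WT 12 h replicates 1 and 2 (ratio 0.781, 28.6 against 22.9).

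**Figure D1:**
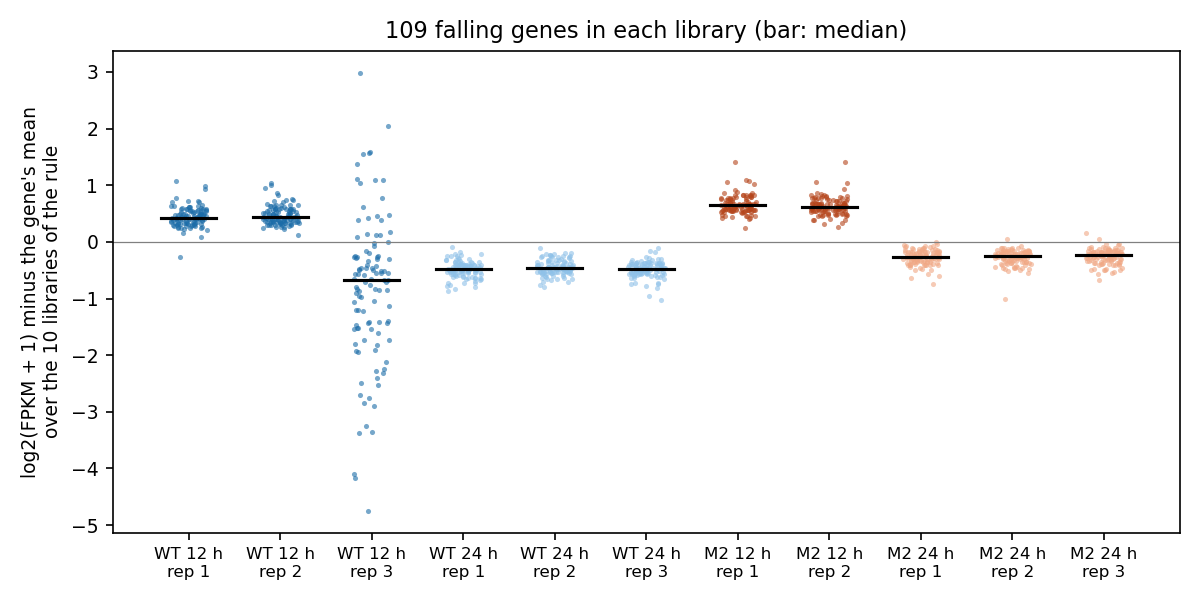
Each point is 1 of the 109 members in 1 library, as log2(FPKM + 1) minus that gene's mean over the 10 libraries used to choose the members. Black bars are medians; the 12 h libraries lie above 0 and the 24 h libraries below it, except WT 12 h replicate 3, whose median member level is 28.5 FPKM against 58.5 and 59.5 in the other WT 12 h replicates.

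The fall was moderate and similar in size in most members. In WT the median over members, taken separately in each group, was 57.3 FPKM at 12 h and 31.5 FPKM at 24 h. In M2 it was 64.2 and 35.1 FPKM. The ratio of 12 h to 24 h means had a median of 1.89 in WT, with a range of 1.64 to 3.58, and a median of 1.86 in M2, with a range of 1.64 to 3.93. It reached 2 in 43 members in WT and in 26 in M2. On the log2 scale the median change was -0.89 in WT and -0.85 in M2, whereas over all 9579 tested genes it was 0.02 and 0.04. As a share of the summed FPKM of a library, the members took 2.70% and 2.72% at 12 h and 1.45% to 1.46% at 24 h in WT. In M2 they took 3.17% and 3.20% at 12 h and 1.76% at 24 h in each replicate. In WT 12 h replicate 3 the share was 0.911%, lower than in any other library.

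The values of the 10 libraries were well separated by time. In 108 of the 109 members all 4 values at 12 h were above all 6 values at 24 h, compared with 19.6% of the tested genes. The exception was a transcript of low level, with 2.52 and 6.17 FPKM in WT 12 h replicates 1 and 2 and 2.51, 2.73 and 3.74 FPKM in the M2 24 h replicates. Its WT 12 h value in replicate 1 thus overlapped the M2 24 h values. By limma, a moderated linear model fitted to all genes at once, all 109 members were past the threshold as lower at 24 h in WT, against 31.5% of tested genes, and all 109 in M2, against 31.4% (adjusted p under 0.05). These counts follow from how the members were chosen. With WT 12 h replicate 3 added, 28 members were past it in WT, against 4.61% of genes, and 33 in M2, against 3.52%. All groups share 1 estimate of spread, so that library also widens the error in M2.

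The replicates of the 10 libraries were close for nearly all members. The median coefficient of variation was 3.29% in WT at 12 h, 4.24% in WT at 24 h, 3.12% in M2 at 12 h and 4.29% in M2 at 24 h. Over tested genes these medians were 4.23%, 4.05%, 5.36% and 4.43%, so such closeness was not particular to the members. The coefficient exceeded 20% in some group for 9 members, all with a mean over groups of 20.2 FPKM or less. Low transcripts therefore carry the least certain values of the set.

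**Figure D2:**
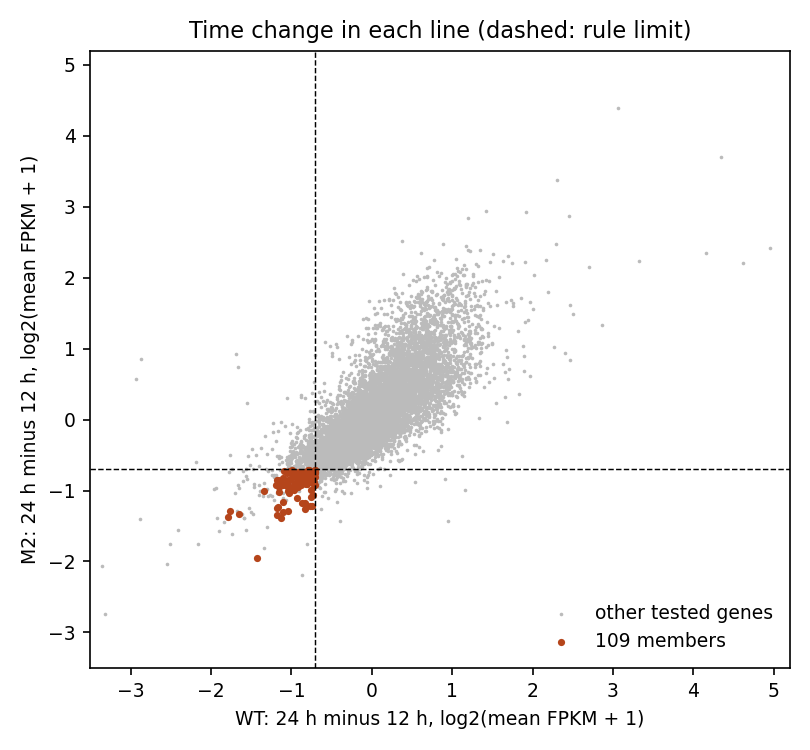
Change from 12 h to 24 h in log2(mean FPKM + 1), WT on the horizontal and M2 on the vertical axis, with 1 point per tested gene and the 109 members in colour. Dashed lines mark the limit of -0.7 that each member had to meet in both lines.

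Few genes fell this far in both lines. Of 9271 genes with at least 5 FPKM in a group, 513 were lower by at least 0.7 in WT, 331 in M2 and 197 in both, while 593 were higher by at least 0.7 in both. The conditions on the line difference left out the remainder of the 197, of which 73 had a level in M2 at 24 h that was higher than in WT by 0.45 or more. Another condition, that M2 was lower by 0.3 or more at 12 h, left out 17, and 3 genes failed 2 conditions. The limits fall in a continuous range of values. The member nearest the limit in WT changed by -0.7009 and the nearest gene outside by -0.6997, and in M2 these values were -0.7098 and -0.6961. At the upper limit of the line difference at 24 h, the nearest member had 0.4353 and the nearest gene outside 0.4517.

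Members spanned a wide range of abundance. Their mean level in WT at 12 h lay between 4.35 and 2235 FPKM, and the mean over the 4 groups was at least 100 FPKM in 26 members and under 10 FPKM in 9. The mean log2 change, which is negative for a fall, was only weakly related to the level across the 109 members (Pearson r = 0.15, Spearman rho = 0.19). The positive sign means that the fall tended to be slightly less deep at higher levels, with all values from the same libraries. The changes in WT and in M2 correlated across members at Pearson r = 0.57 and Spearman rho = 0.47, within the range that the choice allows.

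The 3 most abundant members are described here. The first had 2196 and 2274 FPKM in WT at 12 h, 1229 to 1237 FPKM in WT at 24 h, 2734 and 2701 FPKM in M2 at 12 h and 1481 to 1499 FPKM in M2 at 24 h. The second had 2177 and 2229 FPKM in WT at 12 h, against 1294 to 1319 FPKM at 24 h, and 2591 and 2552 FPKM in M2, against 1516 to 1562 FPKM. In the third, WT went from 1270 and 1273 FPKM to between 717 and 737 FPKM, and M2 from 1727 and 1738 FPKM to between 911 and 926 FPKM. In each of these transcripts the 4 groups did not overlap, and M2 lay above WT at both times. In WT 12 h replicate 3 the same transcripts had 603, 460 and 357 FPKM, below every other library.

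Sorted by depth, 15 members were lower by at least 1 on the log2 scale in both lines, 19 in WT only, 8 in M2 only, and 67 in neither. The mean change of both lines was deeper than -1.5 in 3 members, between -1.5 and -1 in 23 and less deep than -1 in 83. The deepest belonged to scaffold00141.g4840, whose product is not given in the deposited tables. It had 140.2 and 141 FPKM in WT at 12 h and 52.6, 55.4 and 46.6 FPKM in WT at 24 h. In M2 it had 243.9 and 244.4 FPKM at 12 h and 58, 63.2 and 65.4 FPKM at 24 h. Its level at 12 h was thus high in both lines and highest in M2, and at 24 h the lines lay close together without overlapping. The log2 changes were -1.43 in WT and -1.96 in M2 (limma, SE 0.0667 each), or 2.73-fold and 3.93-fold between the means. In WT 12 h replicate 3 it had only 15 FPKM, below every 24 h value, and with that library added the change in WT was -0.39 (SE 0.715).

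Scaffold00070.g2470 had the next deepest fall, and here the larger change was in WT. Its values were 90.7 and 95.1 FPKM in WT at 12 h, 25.5, 26.7 and 26.5 FPKM in WT at 24 h, 100.5 and 81.6 FPKM in M2 at 12 h, and 33.3, 36.9 and 33.6 FPKM in M2 at 24 h. At 12 h the lines overlapped, and at 24 h every M2 value was above every WT value. The log2 changes were -1.79 in WT and -1.37 in M2 (limma, SE 0.0778 each). WT 12 h replicate 3 had 46.8 FPKM, between the 12 h and 24 h values of WT, and with it added the change in WT was -1.46 (SE 0.241).

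The third deepest fall was in the gene with the next number on the same scaffold, which had 45.7 FPKM on average in WT at 12 h and 12.8 FPKM at 24 h, and 40.1 and 15.9 FPKM in M2. These neighbours shared a deeper change in WT than in M2, by 0.41 and 0.48 on the log2 scale, the largest such differences in that direction among the members.

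**Figure D3:**
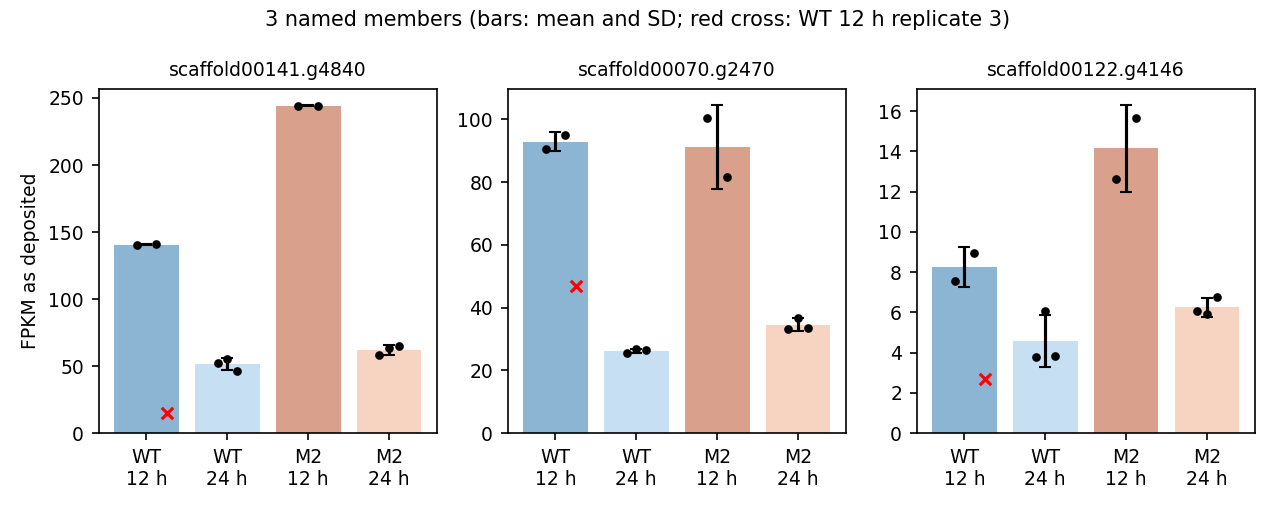
FPKM as deposited of the 3 named members in each group. Bars are means with SD (n = 2 at 12 h, n = 3 at 24 h), black points are libraries and the red cross is WT 12 h replicate 3, which was left out of the bars; it lies below the 24 h values for scaffold00141.g4840 and scaffold00122.g4146 and above those of WT for scaffold00070.g2470.

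Within the limits set by the choice, most members were somewhat higher in M2 than in WT at both times. At 12 h the ratio of M2 to WT had a median of 1.16 (range 0.819 to 1.74), and at 24 h a median of 1.19 (range 0.76 to 1.49). The log2 difference was above 0 in 89 members at 12 h and in 97 at 24 h, with medians of 0.21 and 0.24, whereas the medians over all tested genes were -0.04 and 0.01. The choice had a lower limit but no upper limit at 12 h, which bears on the sign at that time. In 84 members the group means had the order M2 12 h, WT 12 h, M2 24 h, WT 24 h from highest to lowest. Another 13 had WT above M2 at 12 h and below it at 24 h, 7 had WT above M2 at both times, and 5 had M2 above WT only at 12 h.

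Neighbours in that order were often, but not always, separate. The M2 values at 12 h were all above those of WT in 72 members, against 32.0% of tested genes, and at 24 h in 71 members, against 33.7%. By limma, 53 members were past the threshold as higher in M2 at 12 h, against 22.4% of genes, and 5 as lower, against 33.1%. At 24 h, 68 were past it as higher, against 28.4%, and 4 as lower, against 28.2%. The conditions on the line difference shaped these counts and nothing further is read from them. With WT 12 h replicate 3 added, 1 member was past the threshold at 12 h as higher, against 1.16% of genes. As lower there were 0, against 5.25%. In either direction, 21 members were at an unadjusted p under 0.05 (limma), against 2364 of 9589 genes. At 24 h 0 were past the threshold in either direction (limma, 11 libraries), against 0.907% of genes higher and 2.06% lower. At an unadjusted p under 0.05 there were 4 members, against 1387 of 9589 genes.

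**Figure D4:**
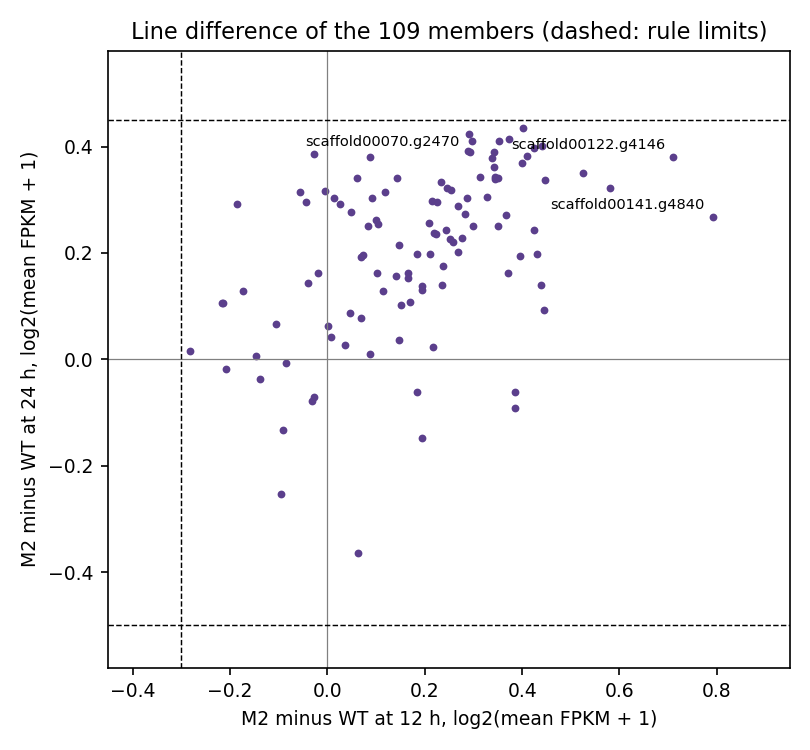
Difference between M2 and WT in log2(mean FPKM + 1) at 12 h on the horizontal and 24 h on the vertical axis for the 109 members, with the limits of the choice dashed and the 3 named members labelled. Most points lie above 0 on both axes, with 89 at 12 h and 97 at 24 h.

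The highest differences at 12 h with separate replicate values were those of scaffold00141.g4840, at 0.79 on the log2 scale (limma, SE 0.0731), and scaffold00122.g4146, at 0.71 (limma, SE 0.181). With WT 12 h replicate 3 added they were 1.84 (SE 0.799) and 1.15 (SE 0.394), and neither was past the threshold. For scaffold00070.g2470 the difference at 12 h was -0.04 (SE 0.0853) without that library and 0.29 (SE 0.269) with it. Scaffold00122.g4146, likewise of unknown product, was a low transcript, with 7.56 and 8.94 FPKM in WT at 12 h, 3.8, 6.06 and 3.84 FPKM in WT at 24 h, 12.6 and 15.7 FPKM in M2 at 12 h, and 6.05, 5.9 and 6.78 FPKM in M2 at 24 h. The M2 values at 12 h were the highest in the series for this gene, and at 24 h the lines overlapped. Its means differed between the lines 1.71-fold at 12 h and 1.37-fold at 24 h. For scaffold00141.g4840 the ratio of M2 to WT was 1.74 at 12 h and 1.21 at 24 h. WT 12 h replicate 3 had 2.68 FPKM of scaffold00122.g4146, below every other library.

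The conditions on both lines bounded how far their changes could differ. The change in M2 minus that in WT had a median of 0.02 over the members and a range of -0.52 to 0.48, and in 81 members the changes lay within 0.2 of each other. By limma's test of this difference, 15 members were past the threshold with the deeper fall in WT, against 22.5% of all genes with a higher change in M2, and 8 with the deeper fall in M2, against 13.5% with a lower one. Both extremes are named above or lie next to a named gene: scaffold00141.g4840 had the deepest fall in M2 relative to WT, and scaffold00070.g2470 and its neighbour the deepest in WT relative to M2. Without WT 12 h replicate 1 the count was 14, where 19.7% of genes were higher and 11.3% lower. With WT 12 h replicate 3 added it was 0, where 0.292% of genes were higher and 0.073% lower. At an unadjusted p under 0.05 (limma) it was also 0, against 972 of 9589 genes.

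The WT 12 h library left out of the choice did not show the 12 h levels of most members. In it, 42 members (38.5%) were above the highest WT 24 h replicate, against 34.5% of tested genes, 63 (57.8%) were below the lowest, against 61.9%, and 4 lay in between. It was below both other WT 12 h replicates in 94 members, or 86.2% of them against 62.5% of tested genes, and by 2-fold or more below their mean in 67, or 61.5% against 35%. Compared with those replicates the median log2 difference was -1.14 over members and -0.48 over tested genes. Members were chosen for high values in replicates 1 and 2, and the part of that choice in the gap was not tested. Compared with the WT 24 h means the medians were -0.24 and -0.43. Against replicates 1 and 2, the log2 differences of the members ran from -5.12 to 2.66. Replicate 3 listed 3 members at 0, which had 13.3, 20.1 and 25.4 FPKM on average in replicates 1 and 2. The highest difference was that of 1 low transcript, at 32.7 FPKM against 4.35 FPKM. The count of 42 above the WT 24 h replicates depended on scaling: it was 60 with median-of-ratios scaling, against 46.9% of tested genes, and 24 with libraries scaled to an equal sum, against 25.4%.

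**Figure D5:**
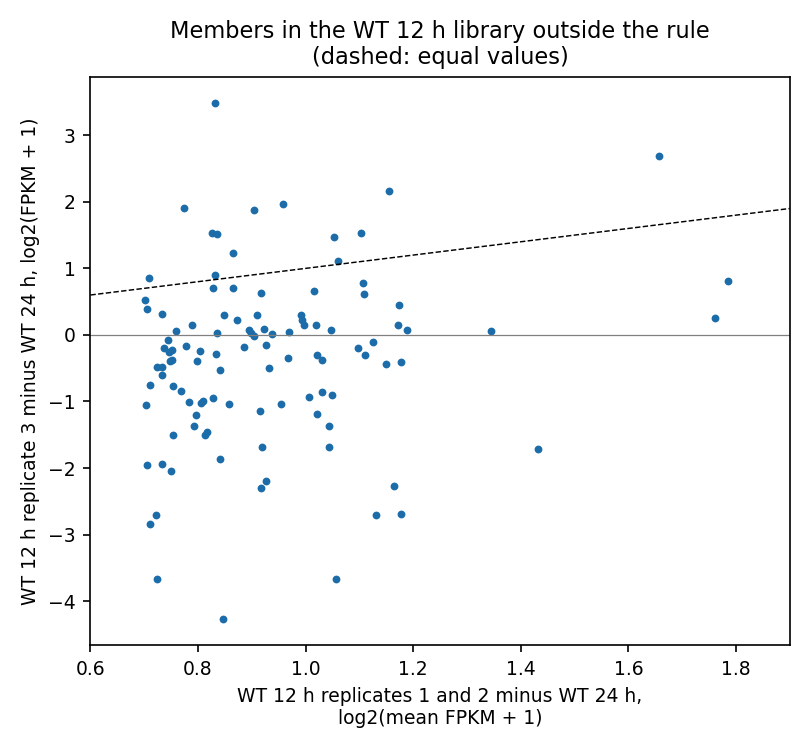
For each of the 109 members, the horizontal axis gives the mean of WT 12 h replicates 1 and 2 minus the WT 24 h mean and the vertical axis the same for WT 12 h replicate 3, both on the log2(FPKM + 1) scale. The dashed line marks equal values; most points lie below it, and the median on the vertical axis is -0.24.

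The authors' merged columns, which give 1 value per group and were not used to choose the members, differed from the replicate columns at 12 h. For M2 at 12 h the merged value was below both replicates in 105 members, or above both in 4, and within them in 0, while the merged value of each 24 h group lay within its replicates for all 109. For WT at 12 h it was compared with replicates 1 and 2 only, and was below both in 97 members, within them in 4 and above both in 8. Over all tested genes the merged values at 12 h were below both replicates in 63.7% for M2 and in 72.4% for WT. In merged values the median over members was 40.7 FPKM in WT at 12 h and 38.3 FPKM in M2 at 12 h. At 24 h these medians were 31.5 and 35.1 FPKM. The change from 12 h to 24 h had a median of -0.33 in WT and -0.07 in M2 over members, and of 0.29 and 0.37 over tested genes. It was below 0 in 100 members in WT, against 29.5% of tested genes, and in 62 in M2, against 28.4%. A fall of at least 0.7 held for 17 members in WT, against 8.06% of tested genes, and for 13 in M2, against 13.1%. How the merged values were made is not stated. In WT at 12 h they depended on replicate 3, the library set apart, as well as on replicates 1 and 2. A member with 0 FPKM in replicate 3 and 25.4 FPKM on average in replicates 1 and 2 had 13 FPKM merged. Another with 57.2 and 27.3 FPKM had 33.5 FPKM merged. The merged change in WT is thus not free of that library. In M2 at 12 h the merged values did not follow the replicates by a common factor. Scaffold00141.g4840 had 108 FPKM merged, against 243.9 and 244.4 FPKM in the replicates. Among the 4 members above both, 1 had 37.6 FPKM merged, against 26.5 and 22.4 FPKM. The replicate columns thus do not account for the merged M2 values at 12 h, and what else entered them was not tested. Merged values also describe the same groups that were used to choose the members, so they are not taken as independent of the choice.

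By their IDs, the members lay on 39 of 283 scaffolds, with at most 8 members on 1 scaffold and 15 scaffolds holding 1 member. The number of genes per scaffold was not taken into account, so these counts do not show how evenly the members were spread. Members with another member next to them in gene number were 8, in 4 pairs, or 7.34% of members, whereas 1.83% of the other genes were next to a member. Within 5 gene numbers the count was still 8, and the share of other genes was 9.41%. The pair on scaffold 70 ranked 2 and 3 by depth of fall, a further pair ranked 41 and 42, and the others 15 and 43, and 28 and 79.

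The 176 tested genes next to a member that were not members themselves had a median change of -0.13 in WT and -0.14 in M2, and 13.1% of them were lower by at least 0.7 in WT, against 5.41% of tested genes. In M2 these shares were 7.39% and 3.52%. Across all 8728 pairs of tested genes with adjacent numbers, the changes of the pair correlated at Pearson r = 0.18 in WT and 0.20 in M2 (Spearman rho = 0.17 and 0.18). Genes are not independent replicates, and the libraries were made without strand information, so the reads of neighbours that overlap on opposite strands are not separable. The part of shared reads in these values was not tested.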

How the data were processed

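Polyadenylated RNA was sequenced as read pairs without strand information, per the labels' protocols. The authors deposited FPKM values, with 1 table of replicates per group and 2 tables that hold 1 merged value per group. Per the submitters' processing notes, the tools were TopHat2 2.0.4 and Cufflinks 2.0.2. Genome build, annotation and any joint normalization of the tables: not given in the sources used here. Each group has its own table, so effects of table and group cannot be told apart. The labels give whole cells and total RNA but also nuclear RNA, and their treatment text describes a further layout with other times. Groups follow the sample titles. The M2 24 h headers read MT, taken as M2 because that table is linked to the group.

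Levels were log2(FPKM + 1) as deposited, which understates changes of low genes. Limma 3.58.1 (R 4.3.3, intensity trend, 2-sided, Benjamini-Hochberg adjustment, threshold 0.05) was fitted to the 4 groups and 10 libraries for 9579 genes with a mean of at least 1 FPKM, all members included. On data simulated for the WT time comparison with 9579 genes, 79% of falls of 0.5 and 93% of falls of 1 on the log2 scale were recovered. The simulation changed 100 genes for each size of fall, none upward, with normally distributed spread. In the real comparison 3318 genes were past the threshold as higher and 3013 as lower, so these rates need not hold there. Python 3.11.15, pandas 2.3.3, numpy 2.4.6, scipy 1.17.1 and matplotlib 3.10.9 were used. The members and lists were chosen with earlier results of these data known. Because IDs carry no names, the members named were the 2 with the deepest mean change and the 2 with the highest line difference at 12 h and separate replicates, which gave 3 genes as 1 met both. Alternatives covered scaling, pseudocounts, filters, limits, moderation, the replicate block and left-out or added libraries. Neither promoter nor protein sequences of the members were used here.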

Additional observations from a re-analysis of the deposited data

Results flagged for a closer look

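The difference in time change between the lines was past limma's threshold for 23 members. The fall was deeper in WT in 15, against 22.5% of tested genes with a higher change in M2. In 8 it was deeper in M2, against 13.5% of tested genes with a lower change in M2. The same contrasts were used to choose the members, so these counts describe the set and are no test of it. Among the named members, the change of scaffold00141.g4840 in M2 minus that in WT was -0.52 in log2 units (limma, SE 0.0943), and for scaffold00070.g2470 it was 0.42 (limma, SE 0.11). For scaffold00122.g4146 the difference was -0.31 (limma, SE 0.234) and not past the threshold. With WT 12 h replicate 3 added, the values of the first pair were -1.57 and 0.10 (limma, SE 1.07 and 0.361), neither past the threshold.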

How the results depend on the processing

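Counts of members past the threshold are given in the order WT over time, M2 over time, the line difference at 12 h, that at 24 h, and the interaction. They were 109, 109, 58, 72 and 23, and 28, 33, 1, 0 and 0 with WT 12 h replicate 3 added. Shares over all genes for both are given with the results above. At an unadjusted p under 0.05 (limma) the members with that library added were 48, 66, 21, 4 and 0. Of all 9589 genes tested there, 2479, 2301, 2364, 1387 and 972 were. Leaving out 1 library gave 108 to 109, 108 to 109, 48 to 59, 63 to 73 and 14 to 19 members past the threshold. Scaling, pseudocounts, filters and robust moderation kept all 5 within 1.5 times, as did fits of the compared groups alone for the first 4. With the replicate number as a block they were 109, 109, 57, 72 and 19. Deviations of same-numbered libraries from their group means correlated at -0.0413 to 0.0334, and those of other libraries at -0.0431 to 0.0431. In a group of 2 libraries the deviations mirror each other, so this cannot decide whether the numbers pair the samples.

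The set had 44 genes with WT 12 h replicate 3 in the mean (34 shared with the 109), 57 with the last M2 12 h column in the mean (57 shared), which lowers that mean by construction, 418 with a fall of at least 0.5, 15 with a fall of at least 1, and 106 to 121 without 1 library. Other settings gave 80 to 139. Median changes in WT and M2 were -0.78 and -0.77 with a pseudocount of 5. Median-of-ratios scaling gave -0.90 in M2 and 0.27 for the line difference at 12 h. With WT 12 h replicate 3 in the mean the median was -0.63 in WT and 0.47 for the line difference at 12 h, and with the last M2 column -0.73 in M2 and 0.078. With libraries scaled to an equal sum, 24 members of WT 12 h replicate 3 were above the WT 24 h replicates, and with median-of-ratios scaling 60, in place of 42. The line difference of scaffold00070.g2470 at 12 h, -0.04 and not past the threshold, was 0.0239 with median-of-ratios scaling, 0.29 with WT 12 h replicate 3, and -0.184 to 0.113 when 1 library was left out, the highest without M2 12 h replicate 2. The cause of these differences was not tested. Read totals are not given, and each line has 2 libraries at 12 h, which limits the precision.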
